A study of Mus musculus with 6 samples.

Results

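Immediate early genes are switched on within minutes of a stimulus without new protein synthesis, and many of them encode transcription factors. A set of 10 immediate early and AP-1 genes was followed in hepatocytes of undamaged and regenerating mouse liver: Fos, Fosb, Fosl1 and Fosl2 of the Fos family, Jun, Junb and Jund of the Jun family, and Atf3, Egr1 and Ier2. They were chosen by name and matched by versioned Ensembl identifier to GENCODE release M21, which gave all 10 of them among 55450 genes. Of the 10 genes, 9 passed the filter on low counts, which 17037 genes passed in all, and Fosl1 did not.

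The data are 6 bulk RNA-Seq libraries of hepatocytes from C57BL/6 mice (C57BL/6J in the study's methods) on normal diet, 3 at 0 hours and 3 at 48 hours after partial hepatectomy (PHx), in which most of the liver is surgically removed and the remnant regrows. The mice were 10 to 12 weeks old per the labels and male per the study's methods, which give a somewhat younger age. The 0-hour libraries come from undamaged liver, and no sham-operated liver was analysed here. Each library is a separate sample in the labels and the study describes biological replicates, so the p-values measure the spread between these 3 and 3 samples. Hepatocytes of both groups were isolated by the same collagenase perfusion of the liver in 2 steps, a procedure that can itself induce immediate early genes. Since every library went through it, RNA that was present in the liver and RNA made during isolation cannot be told apart in either group.

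AP-1 is a dimer of bZIP proteins, in which a leucine zipper joins the partners and a basic region contacts DNA. Jun proteins pair with one another or with Fos proteins, whereas Fos proteins do not form stable dimers among themselves and depend on a Jun partner. Atf3 is a stress-induced bZIP factor that also pairs with Jun proteins, Egr1 is a zinc finger factor induced by growth factors, and Ier2 is a short nuclear protein induced by serum and growth factors. In liver, Fos, Jun and Egr1 are known to be induced early after PHx, and Jun is required for normal hepatocyte proliferation in the regenerating organ.

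The promoters of Fos and Fosb and of Jun and Junb, members of both families, are shown first, since promoters hold the short sequences through which stimuli and the AP-1 proteins themselves act on these genes. Sequences are those of RefSeq on GRCm38.p6, from 250 bases before to 50 bases after the annotated start, written 5′ to 3′ on the gene's strand. Of the 10 genes, 7 were searched (Fos, Fosb, Fosl2, Jun, Junb, Jund and Atf3), and Egr1, Fosl1 and Ier2 were not. The window of Fos is chr12:85473640-85473939 on the plus strand, that of Fosb chr7:19309996-19310295 on the minus strand, that of Jun chr4:95052173-95052472 on the minus strand and that of Junb chr8:84978699-84978998 on the minus strand. Capitals mark TGACG, the half-site of the cAMP response element, in Fos, Fosb and Junb, the Egr-type site GCGNGGGCG in Fosb, the Jun-type AP-1 site TGACATCA in Jun, and the TATA box letters TATAAA in Fos and Junb.
Fos promoter: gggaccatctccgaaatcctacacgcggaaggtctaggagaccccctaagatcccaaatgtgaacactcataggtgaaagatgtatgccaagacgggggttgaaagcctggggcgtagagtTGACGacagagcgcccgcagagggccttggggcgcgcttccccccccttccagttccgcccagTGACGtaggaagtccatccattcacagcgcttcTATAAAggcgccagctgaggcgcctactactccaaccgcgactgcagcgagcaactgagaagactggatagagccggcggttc
Fosb promoter: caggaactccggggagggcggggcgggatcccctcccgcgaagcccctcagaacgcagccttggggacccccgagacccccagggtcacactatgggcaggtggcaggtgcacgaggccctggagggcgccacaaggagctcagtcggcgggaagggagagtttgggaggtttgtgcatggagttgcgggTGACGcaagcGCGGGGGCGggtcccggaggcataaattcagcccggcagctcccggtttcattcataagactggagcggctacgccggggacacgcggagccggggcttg
Jun promoter: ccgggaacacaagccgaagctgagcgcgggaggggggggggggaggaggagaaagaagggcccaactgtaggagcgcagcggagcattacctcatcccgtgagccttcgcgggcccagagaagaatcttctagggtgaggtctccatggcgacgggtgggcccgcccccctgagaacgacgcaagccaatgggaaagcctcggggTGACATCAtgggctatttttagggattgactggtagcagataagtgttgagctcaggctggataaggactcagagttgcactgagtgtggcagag
Junb promoter: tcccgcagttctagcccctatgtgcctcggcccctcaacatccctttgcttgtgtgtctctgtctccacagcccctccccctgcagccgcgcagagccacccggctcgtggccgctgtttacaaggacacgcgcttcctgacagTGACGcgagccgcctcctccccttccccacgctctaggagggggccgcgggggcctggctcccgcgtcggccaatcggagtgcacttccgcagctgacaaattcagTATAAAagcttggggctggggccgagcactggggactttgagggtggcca

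TGACG was found in 4 of the 7 windows, those of Atf3, Fos, Fosb and Junb, and in 20.8% of 32851 promoters of the same length. TGACATCA was found only in Jun among the 7, and in 3.62% of all promoters. The Egr-type site lay in Fosb and Fosl2, against 5.55% of all promoters, and TATAAA, searched on the gene's strand only, in Fos and Junb, against 8.32%. The full AP-1 site TGACTCA (5.2% of all promoters), the full cAMP response element TGACGTCA (1.79%), which contains TGACG, and the CArG box bound by serum response factor (1.63%) were in none of the 7 windows. Bases further than 250 before the annotated start were not searched, so nothing is shown about sites there. Apart from TATAAA, both strands were searched, and a match is a match of letters, not a bound site. TATAAA lay at position -33 from the annotated start in Fos and at position 0 in Junb. Set against the outermost start that GENCODE gives each gene, the window of Jund ends upstream. Those of Atf3 and Fosl2 lie downstream of it, inside the gene. The 4 windows shown had a GC content of 58.7% (Fos), 68.3% (Fosb), 60% (Jun) and 65.3% (Junb), against a median of 52.7% over all promoters.

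Transcripts of immediate early genes are short-lived, and AU-rich elements in the 3′ UTR are a known route to their decay. In the GENCODE transcript with the longest coding sequence, the pentamer ATTTA was present in the 3′ UTR of 9 of the 10 genes, at 4.91 per kb in Fos, 4.12 in Junb, 3.24 in Jun and 2.53 in Atf3, and was absent from that of Ier2. The median over the 10 genes was 1.8 per kb, against 1.32 over 19487 protein-coding genes. The longer element TTATTTATT was found in 2 of 10 genes or 20%, Fos and Fosl2, against 7.51% of those protein-coding genes. These shares were not corrected for the length of the 3′ UTR, which was 815 bases in Fos and 4653 in Fosl2. The median length was 1000.5 bases over the 10 genes and 913 over the protein-coding genes. A stretch of 30 bases around TTATTTATT is shown for Fos in the DNA letters of GRCm38, bases 645 to 674 of its 3′ UTR, with the element in capitals.
Fos 3′ UTR: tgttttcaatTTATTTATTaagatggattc

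The libraries held 31419443 to 36346220 gene counts at 0 hours and 31684152 to 33093006 at 48 hours. Levels are given as CPM, the counts of a gene scaled to a fixed library total, after TMM normalization, and a gene was called where edgeR's quasi-likelihood test gave an adjusted p under 0.05 over all 17037 genes. Among all genes tested, 3638 were called higher at 48 hours (21.4%) and 3288 lower (19.3%), with a median log2 fold change of 0.00. Counts called in the gene lists and cell type markers below stand beside these shares. Of the 9 immediate early and AP-1 genes tested, 3 were higher (Fos, Fosb and Fosl2), 2 were lower (Junb and Ier2) and 4 did not pass (Jun, Jund, Atf3 and Egr1). All 3 libraries of one group stood above all 3 of the other in 27.8% of all genes in the upward direction and in 25.0% in the downward direction. Among the 9 genes this was so for 3 upward (Fos, Fosb and Fosl2) and for 3 downward (Jun, Junb and Ier2). In bulk libraries, fewer cells of a type and less RNA per cell cannot be told apart.

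**Figure D1:**
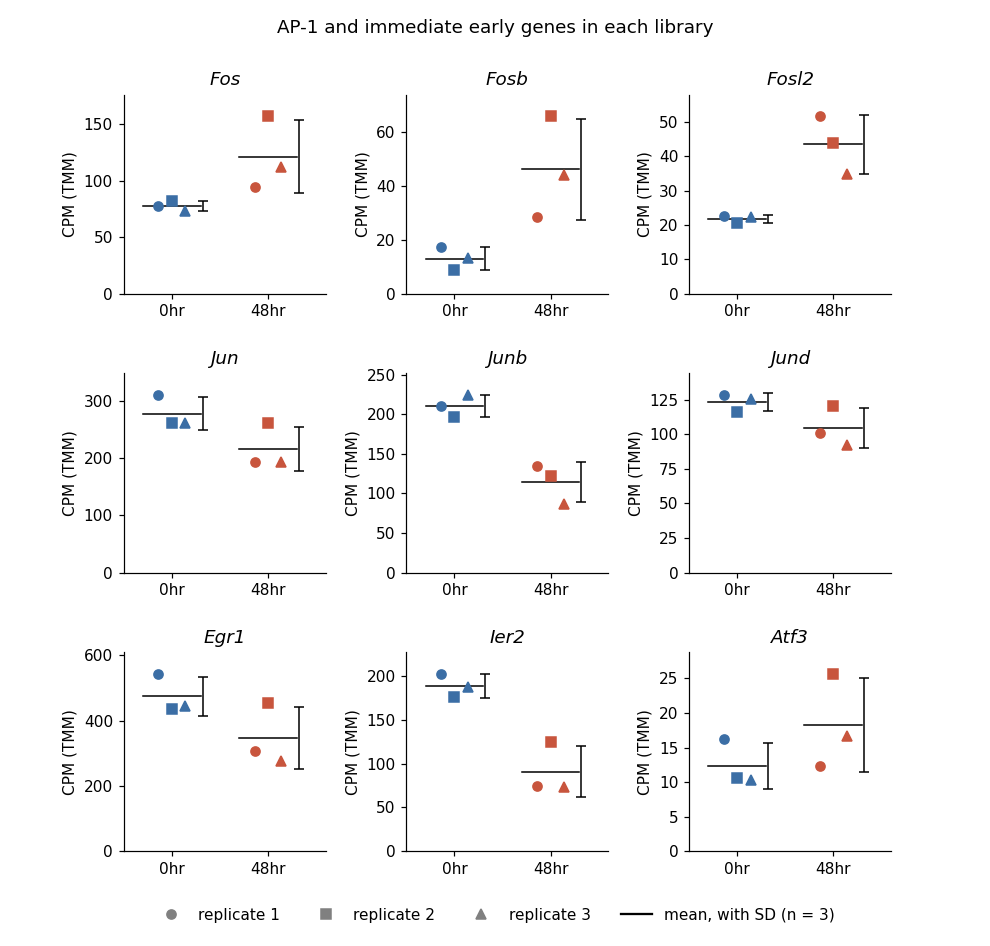
Normalized CPM of the 9 tested genes in each library (circle, square and triangle for replicates 1, 2 and 3) with the group mean (line) and SD (bar, n = 3), each panel on its own linear axis from 0. The 48-hour points of Fos, Fosb and Fosl2 lie above every 0-hour point, those of Junb and Ier2 lie below, those of Jund, Atf3 and Egr1 overlap, and Jun is separated by a narrow margin, 260.6 against 260.8 CPM.

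The Fos family was higher 48 hours after PHx in each of its 3 measurable members. Fos (ENSMUSG00000021250.13, chr12:85473890-85477273, plus strand, GRCm38) encodes the founding member of the family and is the classic marker of recent stimulation. Its level was 77.78, 82.2 and 73.18 CPM in the 3 libraries at 0 hours and 94.45, 157.4 and 112.5 CPM at 48 hours. The groups did not overlap, and the second 48-hour library was well above its companions. The means were 77.7 ± 4.51 and 121.5 ± 32.4 CPM (SD, n = 3 each), a log2 fold change of 0.64 ± 0.17 (SE; edgeR adjusted p = 0.0121) or 1.56-fold higher. Without the second 48-hour library the log2 fold change was 0.40, still past the threshold (adjusted p = 0.0457).

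Fosb (ENSMUSG00000003545.3, chr7:19302696-19310051, minus strand), which encodes a full-length and a truncated protein by splicing, had the largest difference of the 9 tested genes. Its libraries read 17.46, 8.668 and 13.1 CPM at 0 hours and 28.42, 65.95 and 43.98 CPM at 48 hours. The groups did not overlap, although libraries within each group also stood far apart, and the second 48-hour library was again the highest. The mean rose 3.53-fold, from 13.1 ± 4.40 to 46.1 ± 18.9 CPM, a log2 fold change of 1.82 ± 0.30 (SE; edgeR adjusted p = 0.000911).

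Fosl2 (ENSMUSG00000029135.10, chr5:32135801-32157842, plus strand) encodes Fra-2, a family member without the strong transactivation domain of Fos and with slower kinetics. It read 22.64, 20.49 and 22.41 CPM at 0 hours and 51.67, 43.82 and 34.67 CPM at 48 hours. Here the groups were clearly apart and the first 48-hour library was the highest, so that the second 48-hour library did not lead in every Fos family gene. Fosl2 rose 1.99-fold, with a log2 fold change of 0.99 ± 0.14 (SE; edgeR adjusted p = 0.000357). Fosl1 (ENSMUSG00000024912.6, chr19:5447547-5455946, plus strand), which encodes Fra-1, had 0 counts in 5 libraries and 1 count in the second 48-hour library. This is under the floor of 3 counts per library, so no level and no fold change can be given, and 57.2% of its exon bases overlap Ccdc85b on the opposite strand.

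The Jun family went the other way or did not pass. Junb (ENSMUSG00000052837.6, chr8:84974484-84978718, minus strand) encodes a Jun protein that transactivates weakly and can counter Jun at some promoters. Its libraries read 210.4, 196.5 and 224.6 CPM at 0 hours and 135, 121.4 and 86.56 CPM at 48 hours. No 48-hour library reached the lowest 0-hour value, and the third was the lowest. Junb was 1.84-fold lower, from 210.5 ± 14.1 to 114.3 ± 24.97 CPM, a log2 fold change of -0.88 ± 0.16 (SE; edgeR adjusted p = 0.00157). Prdx2 on the opposite strand overlaps 7.52% of its exon bases.

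Jun (ENSMUSG00000052684.4, chr4:95049034-95052222, minus strand), the intronless gene of the central AP-1 subunit, read 310.6, 260.8 and 261.2 CPM at 0 hours and 192.8, 260.6 and 193.9 CPM at 48 hours. The second 48-hour library lay just under the lowest 0-hour library, and the other two 48-hour libraries were well below. The log2 fold change was -0.36 ± 0.15 (SE) and did not pass (edgeR adjusted p = 0.0782). Without the second 48-hour library it was -0.54 and passed. Jund (ENSMUSG00000071076.6, chr8:70698949-70700616, plus strand), also intronless and usually the steadily expressed member of the family, read 128.5, 115.8 and 125.7 CPM at 0 hours and 100.6, 120.4 and 91.93 CPM at 48 hours. The groups overlapped through the second 48-hour library, and the log2 fold change of -0.24 ± 0.12 (SE) did not pass (edgeR adjusted p = 0.148). Of the exon bases of Jund, 52.6% overlap Gm11175 on the opposite strand, as do 7.28% of those of Jun with its antisense gene Junos, and whether reads were counted by strand is not given in the sources used here.

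To set the families side by side, levels were divided by exon length and summed. On this scale of CPM per kb of exon, the Fos family totalled 38.21, 38.46 and 35.53 at 0 hours and 50.05, 82.04 and 58.47 at 48 hours. The Jun family totalled 265.9, 236.6 and 254.9 at 0 hours and 179.4, 206.7 and 153.5 at 48 hours. The 2 totals thus moved in opposite directions without overlap between groups, but with library size as the only scaling the Jun totals overlapped (224.7 to 248.6 at 0 hours and 169.7 to 226.5 at 48 hours). The Fos family's share of both families does not depend on the scaling between libraries. It was 12.56%, 13.98% and 12.23% at 0 hours and 21.81%, 28.42% and 27.58% at 48 hours, so every 48-hour library was above every 0-hour library.

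The mean share was 12.9% ± 0.929 at 0 hours and 25.9% ± 3.60 at 48 hours (SD, n = 3). With coding-transcript lengths it was 13.6% ± 0.884 and 28.2% ± 4.01, and with no length correction 15.6% ± 0.619 and 32.5% ± 3.13. Both alternatives were chosen after seeing the data, and in neither did the groups overlap. Within the Jun family, Junb took 36.3% ± 1.96 of the total at 0 hours and 27.6% ± 4.46 at 48 hours, with no overlap, whereas the share of Jun, 34.4% ± 2.25 and 37.6% ± 3.39, overlapped between the groups. These are sums and shares of RNA, and dimers were not measured.

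**Figure D2:**
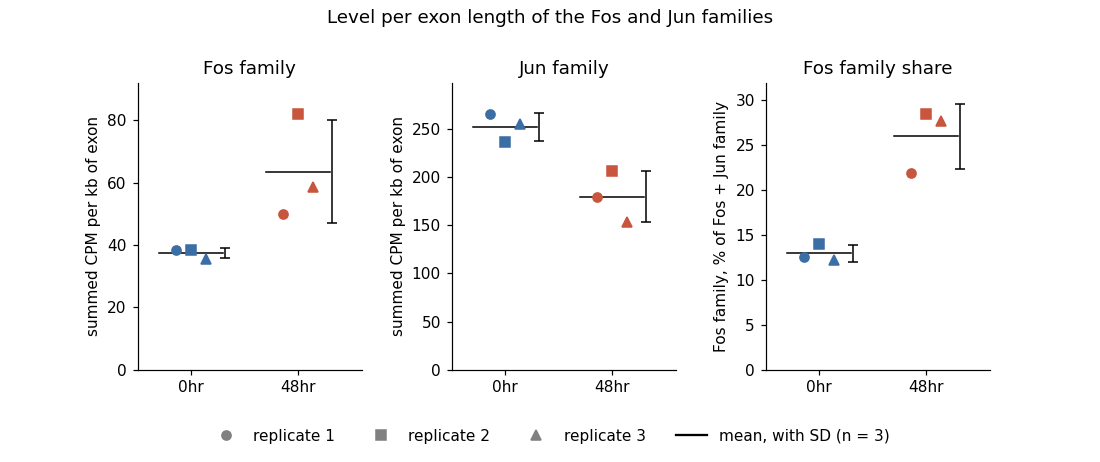
Summed CPM per kb of exon of the Fos and Jun families, and the Fos family's percent share of their total, in each library at 0 and 48 hours (points, with group mean as line and SD as bar, n = 3). The share lies between 12.23% and 13.98% at 0 hours and between 21.81% and 28.42% at 48 hours.

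Of the remaining genes, Ier2 fell and Atf3 did not pass. Ier2 (ENSMUSG00000053560.4, chr8:84661331-84662852, minus strand), another intronless gene, read 202.4, 175.2 and 187.1 CPM at 0 hours and 74.68, 124.3 and 72.82 CPM at 48 hours. All 48-hour libraries were below all 0-hour libraries, and the second 48-hour library was the one nearest to them. Ier2 was 2.08-fold lower, from 188.2 ± 13.7 to 90.6 ± 29.2 CPM, a log2 fold change of -1.05 ± 0.19 (SE; edgeR adjusted p = 0.00166). Atf3 (ENSMUSG00000026628.13, chr1:191170296-191218039, minus strand) read 16.24, 10.54 and 10.36 CPM at 0 hours and 12.38, 25.7 and 16.62 CPM at 48 hours. The groups overlapped, since the first 0-hour library was above the first 48-hour library, and the log2 fold change of 0.56 ± 0.26 (SE) did not pass (edgeR adjusted p = 0.109). Without the second 48-hour library it was 0.22 (adjusted p = 0.501).

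Egr1 (ENSMUSG00000038418.7, chr18:34859823-34864984, plus strand) encodes a factor whose own targets include growth and repair genes. It read 544.4, 435.1 and 446.6 CPM at 0 hours and 308.4, 454.3 and 276.7 CPM at 48 hours. The first and the third 48-hour library lay below every 0-hour library and the second lay among them. The means were 475.3 ± 60.1 and 346.5 ± 94.7 CPM, and the log2 fold change of -0.46 ± 0.19 (SE) did not pass (edgeR adjusted p = 0.0795). Without the second 48-hour library it was -0.71 and passed.

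Levels of different genes can be compared only per length. In CPM per kb of exon at 0 hours, the order of the mean levels was Ier2 (123.7), Egr1 (106), Junb (91.49), Jun (87.02), Jund (73.94), Fos (33.05), Atf3 (5.747), Fosl2 (2.257), Fosb (2.095) and Fosl1. Neighbours whose libraries overlapped in this order were Ier2 and Egr1, Egr1 and Junb, Junb and Jun, and Fosl2 and Fosb, and the other neighbours were separate. At 48 hours the mean levels per kb were 77.26 for Egr1, 67.67 for Jun, 62.54 for Jund, 59.52 for Ier2, 51.64 for Fos, 49.68 for Junb, 8.466 for Atf3, 7.387 for Fosb and 4.482 for Fosl2. Here the libraries of all neighbours overlapped, except between Junb and Atf3 and between Fosl2 and Fosl1. Ier2 and Junb moved down this order, from ranks 1 and 3 to ranks 4 and 6. The rank of Junb rests on its 2.301 kb of exon. Its coding transcript has 1809 bases, and the order was not computed with coding-transcript lengths.

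Among 11 other AP-1 related bZIP genes, 9 were tested. Of these, 1 was higher and 2 were lower (against 21.4% and 19.3% of all genes tested). Their median log2 fold change was -0.24. Mafg, a small Maf protein that partners bZIP factors such as Nrf2, fell from 88.9 ± 6.77 to 55.0 ± 1.97 CPM (log2 fold change -0.69). Atf2, a partner of Jun and a kinase target in the stress response, rose slightly, from 45.4 ± 4.71 to 58.8 ± 2.76 CPM (log2 fold change 0.37, edgeR adjusted p = 0.0186), and missed the threshold without the third 48-hour library (adjusted p = 0.0608).

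Of 41 other immediate early genes, 38 were tested. There 12 were higher and 11 lower (against 21.4% and 19.3% of all genes tested), and 15 did not pass. Their median log2 fold change was 0.20. Klf6, a Krüppel-like factor of injury responses, rose 5.83-fold, from 7.046, 5.929 and 9.727 CPM to 49.32, 50.4 and 32.81 CPM (log2 fold change 2.54 ± 0.21, SE; edgeR adjusted p = 8.69e-06). Every 48-hour library was several times above every 0-hour library. Gadd45b, a stress and growth arrest protein, rose by 2.52 and Hes1, a Notch target repressor, by 2.13 on the log2 scale. Ier3, a survival factor, rose as well, from 0.204 ± 0.105 to 1.48 ± 0.379 CPM (log2 fold change 2.84), both low levels. Egr2, a zinc finger relative of Egr1, was 0.845 ± 0.344 CPM at 0 hours and 2.22 ± 1.08 CPM at 48 hours (log2 fold change 1.40, edgeR adjusted p = 0.0184). It did not pass without the second 48-hour library (log2 fold change 0.91, adjusted p = 0.092) or without the second 0-hour library (adjusted p = 0.0583).

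Among the immediate early genes that were lower, Dusp1, a phosphatase of MAP kinases, read 179.7, 179.1 and 193.2 CPM at 0 hours and 51.93, 81.89 and 75.71 CPM at 48 hours (log2 fold change -1.40 ± 0.16, SE; edgeR adjusted p = 8.75e-05). Zfp36, which binds AU-rich elements and destabilizes their transcripts, read 754.8, 530.8 and 687.8 CPM at 0 hours and 240.8, 330.1 and 241.1 CPM at 48 hours (log2 fold change -1.28 ± 0.18, SE; edgeR adjusted p = 0.00029). In both genes the groups were far apart. Nr4a1, an orphan nuclear receptor, fell from 80.8 ± 9.68 to 35.1 ± 14.6 CPM, a log2 fold change of -1.20, and Gadd45g fell from 40.4 ± 19.0 to 7.84 ± 3.39 CPM, a log2 fold change of -2.37. Btg2, an antiproliferative gene, was 126.2 ± 23.2 and 115.5 ± 31.2 CPM (log2 fold change -0.13, edgeR adjusted p = 0.641). Myc was 20.5 ± 14.7 CPM at 0 hours, where its libraries ranged from 6.348 to 35.64 CPM, and 34.4 ± 12.3 CPM at 48 hours, a log2 fold change of 0.75 ± 0.46 (SE) that did not pass (edgeR adjusted p = 0.223).

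**Figure D3:**
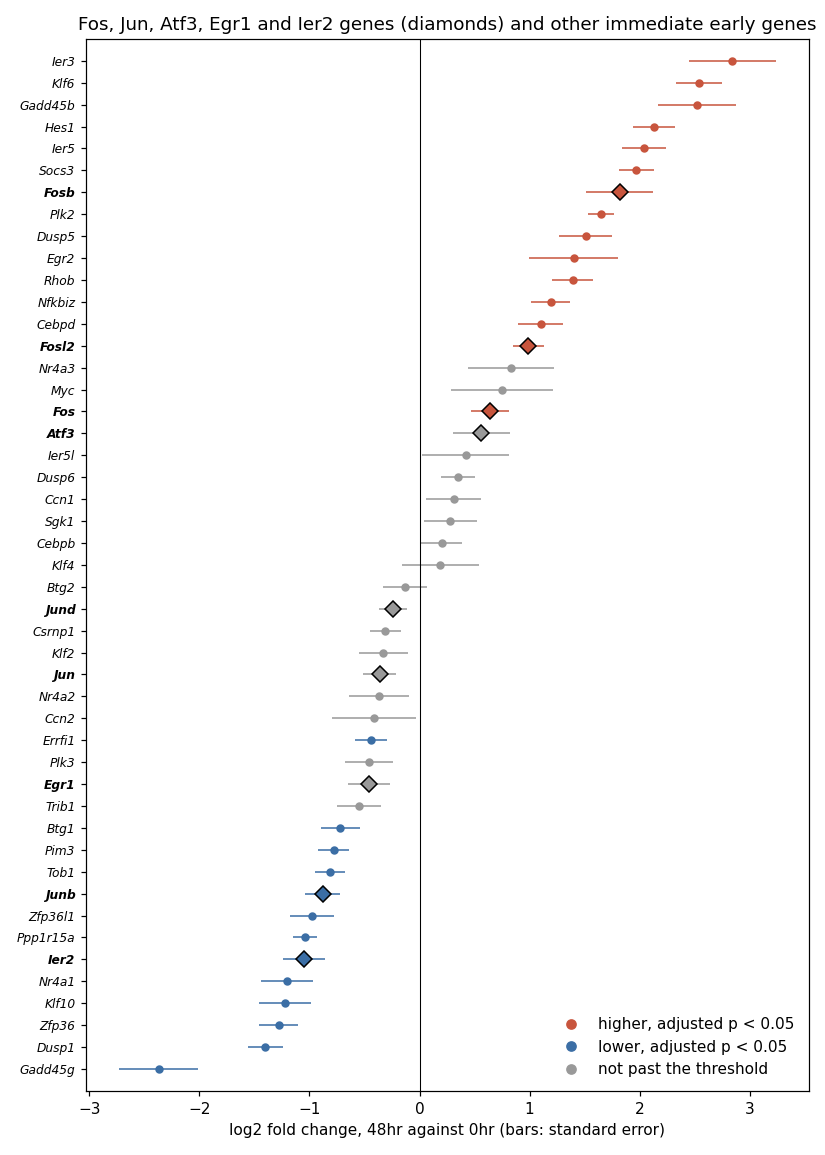
Log2 fold change (48 hours minus 0 hours) with its SE for the 9 tested genes (diamonds) and the 38 other immediate early genes tested (circles), ordered by size, in red or blue where higher or lower at an adjusted p under 0.05 and in grey otherwise. Fosb (1.82) and Ier2 (-1.05) are the extremes of the 9 tested genes. Several other genes lie beyond them, with Ier3 (2.84) the highest of all shown and Gadd45g (-2.37) the lowest.

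Of 25 genes for kinases and factors that act on AP-1 or on the promoters of its genes, 24 were tested. By edgeR's adjusted p, 5 were higher and 0 lower, against 21.4% and 19.3% of all genes tested. At an unadjusted p under 0.05, 1 was lower (Elk3), and 1 was lower by DESeq2. Their median log2 fold change was 0.07. Mrtfa, a cofactor of serum response factor, rose from 17.5 ± 0.832 to 33.1 ± 5.83 CPM (log2 fold change 0.92). Rps6ka3, a growth factor dependent kinase of transcription factors, rose by 0.77 and Mapk3, which encodes ERK1, by 0.63 on the log2 scale. Mapk8, which encodes the Jun kinase JNK1, was 22.4 ± 1.33 and 28.2 ± 0.527 CPM (log2 fold change 0.34, edgeR adjusted p = 0.0208) and did not pass under 7 of 14 alternatives. Srf itself was 32.8 ± 2.06 and 34.1 ± 2.70 CPM (log2 fold change 0.06, edgeR adjusted p = 0.689). Phosphorylation, through which most of these proteins act, was not measured.

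Of 16 genes known as AP-1 targets, 9 were tested. Of those, 4 were higher and 1 was lower (against 21.4% and 19.3% of all genes tested). Their median log2 fold change was 0.94. The largest increase was that of Ccnd1, which encodes cyclin D1, at 17.43, 20.53 and 21.08 CPM and then 203.7, 224.4 and 201.4 CPM (log2 fold change 3.41 ± 0.13, SE; edgeR adjusted p = 4.11e-08). Its libraries were close to one another within both groups, and 23.4% of its exon bases overlap LTO1 on the opposite strand. Hmox1, the heme oxygenase, rose from 6.57 ± 1.202 to 15.0 ± 0.446 CPM. Spp1, osteopontin, was called higher (log2 fold change 1.51, edgeR adjusted p = 0.0212) although its libraries overlapped, and it did not pass without the second 0-hour, the third 0-hour or the third 48-hour library (adjusted p of 0.0662, 0.0735 and 0.0883). Vegfa was lower, at 200.4 ± 9.13 and 112.8 ± 1.99 CPM (log2 fold change -0.83). Il6, Mmp13 and Mmp3 had at most 3 counts in every library.

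The libraries of a group differed from one another in these genes. The 48-hour groups of the AP-1 and immediate early genes were more spread than their 0-hour groups, with an SD on the log2 scale of 0.374 against 0.0838 for Fos and of 0.435 against 0.104 for Ier2. Over all 7564 genes that averaged 10 CPM or more the median SD was 0.116 at 48 hours and 0.148 at 0 hours. The spread within groups stood at percentile 98.4 of those genes for Fosb, 97.1 for Atf3, 91.9 for Ier2, 89.6 for Egr1, 86.8 for Fos and 51.7 for Jund. The second 48-hour library was the highest of its group in 7 of the 9 tested genes, with a median deviation from the group mean of 0.41 on the log2 scale. It was above its group mean in genes that rose (Fos, Fosb) and in genes that fell (Ier2), so that it widened the first differences and narrowed the second. At 0 hours the first library was the highest in 7 of the 9 genes (median deviation 0.11) and the second was the lowest in 7.

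The isolation of cells is known to raise heat shock genes together with AP-1 genes, and 14 heat shock genes were therefore read in the same libraries. Of these, 2 were higher and 1 was lower (against 21.4% and 19.3% of all genes tested), and 11 did not pass. Their median log2 fold change was -0.05. Their summed level was 2391, 2608 and 2993 CPM from the lowest to the highest 0-hour library and 2449, 2597 and 3060 CPM at 48 hours, and so overlapped. Hsp90aa1 rose from 82.9 ± 17.6 to 143.6 ± 13.1 CPM and Bag3 from 54.5 ± 2.43 to 76.5 ± 7.90 CPM, and Hspa5, an endoplasmic reticulum chaperone, fell from 697.1 ± 60.0 to 484.4 ± 66.6 CPM. The call of Hspa5 was lost without the third 0-hour library (adjusted p = 0.0607), without the second 48-hour library (0.0655) and with library size as the only scaling (0.0778). The stress-inducible Hspa1b read 6.74, 25.13 and 10.54 CPM at 0 hours and 12.32, 4.391 and 25.53 CPM at 48 hours, with wide spread in both groups.

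The libraries high in AP-1 and immediate early genes were not those high in heat shock genes. The second 48-hour library was the lowest of its group in 9 of 14 heat shock genes (median deviation -0.18), and the third 48-hour library, the lowest in 5 of the 9 AP-1 and immediate early genes, was the highest in 11 of 14 (median deviation 0.19). The first 0-hour library was likewise the lowest of its group in 9 of 14 heat shock genes. It was also the lowest in 10 of 10 endothelial and 10 of 10 Kupffer cell markers, whereas the second 48-hour library was the highest of its group in 6 of 10 Kupffer cell markers (median deviation 0.12) and in 4 of 10 endothelial markers (median deviation 0.03). Among the 38 other immediate early genes, the second 48-hour library was the highest of its group in 18 and the lowest in 4 (median deviation 0.14). The first 0-hour library was the highest of its group in 18 and the lowest in 11 (median deviation 0.08). The part of the isolation in the levels of the AP-1 genes was not tested.

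**Figure D4:**
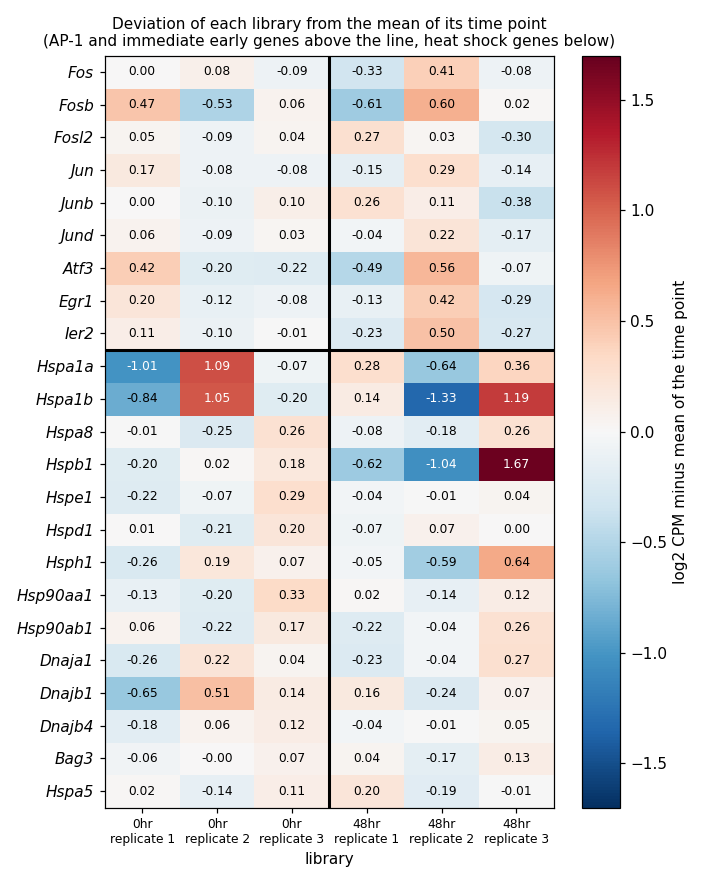
Heat map of each library's deviation from the mean of its time point, in log2 CPM, for the 9 tested AP-1 and immediate early genes (above the line) and 14 heat shock genes (below it), with the value in each cell, red above and blue below the mean. The second 48-hour library is shifted upward in the AP-1 and immediate early genes (median 0.41) and downward in heat shock genes (median -0.18).

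Markers of the cell types that a hepatocyte preparation could hold were read beside these genes, since immediate early genes can be induced in many cell types. Hepatocyte markers were the most abundant, with sums of 1.04e+05 to 1.23e+05 CPM at 0 hours and 6.45e+04 to 7.46e+04 CPM at 48 hours, and 5 of 10 were lower, led by Cyp2e1 (log2 fold change -1.71), Ttr (-1.32) and Serpina1c (-0.99). All 10 endothelial markers were lower, led by Oit3 (-1.51), Fcgr2b (-1.11) and Kdr (-1.06), with summed levels of 247.5 to 390.2 CPM at 0 hours and 178.5 to 194.6 CPM at 48 hours. Pecam1 and Cdh5 did not pass with library size as the only scaling, and they, Lyve1 and Clec4g each missed the threshold without at least 1 of the libraries. Stellate cell markers summed to 119.9 to 179.5 CPM and 103.5 to 116.3 CPM (2 of 9 tested higher, Col1a1 among them, and Ecm1 and Reln lower), and Kupffer cell markers summed to 78.33 to 118.4 CPM and 111.7 to 137.2 CPM, which overlapped (Marco and Cd5l higher, of 10 tested). Cholangiocyte markers summed to 9.152 to 20.66 and 16.33 to 25.99 CPM, with 4 of 7, among them Cftr, Epcam and Krt7, at no more than 3 counts in every library. Neutrophil markers summed to at most 1.063 CPM, with 6 of 8 at no more than 3 counts, and lymphocyte markers to at most 3.887 CPM, with 5 of 8 at that level. Endothelial and stellate cell sums thus moved down together with Junb and Ier2, and the part of these cells in those differences was not tested.

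The genes most like Fos, Jun and Atf3 were sought by the root mean square (RMS) difference of log2 CPM, centred on each gene's mean over the 6 libraries, among the 7564 genes that averaged 10 CPM or more. The measure is not scaled, so that a gene that varies little has small values to many genes, and it is a description over 6 libraries that share depth and group. Nearest to Fos were Alas1 (0.112), the rate-limiting enzyme of heme synthesis, H2afv (0.112), Gm45222 (0.114), Dnaja2 (0.132) and Odf2 (0.135), and the nearest of the other AP-1 and immediate early genes described first was Atf3, at rank 228 (0.236). Nearest to Jun were Ndufb3 (0.042), Mrps35 (0.052), Bnip1 (0.067), Cox6a1 (0.078) and Tnfaip8l1 (0.086), with Egr1 at rank 10 (0.102) and Jund at rank 11 (0.103). Nearest to Atf3 were A930033H14Rik (0.200), Gdf15 (0.209), a stress-induced cytokine, Rplp1 (0.223), Hlf (0.228) and Alas1 (0.229), with Fos at rank 7 (0.236).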

How the data were processed

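Bulk RNA-Seq was performed on hepatocytes of 6 mouse livers, 3 at each of 2 time points. The deposited values are raw counts per gene in the layout of htseq-count, not normalized by the authors. Per the submitters' processing notes, FastQC 0.11.5, Trim Galore 0.6.4, STAR 2.6, HTSeq 0.12.4 and DESeq2 were used with build mm10. The strand setting and the counting mode are not given in the sources used here. The lines for reads on no gene (24.3% to 32.7% of counted reads) or on more than one gene (4.27% to 5.29%) were kept out of library sizes and tests.

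All 55450 gene identifiers matched GENCODE M21 with their versions. The test was edgeR 4.0.16 run in R 4.3.3 on genes reaching 10 counts in 3 or more libraries (TMM, glmQLFit, glmQLFTest, all 6 libraries, time as the only term), with Benjamini-Hochberg adjustment over all genes tested. SE is the size of the log2 fold change divided by the square root of the F statistic. Profiles used log2 CPM with a prior count of 2. Alternatives were DESeq2 1.42.0, other scalings, no filter, a replicate block and leaving out each library. Floors of 3 counts cover counting error only, since no molecular identifiers are stated.

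The genes, lists, promoter motifs and tests were chosen with earlier results of these data known. All 10 genes are named. From every other list the 3 largest increases and the 3 largest decreases were named, where reported here, among genes called with a mean of at least 1 CPM, besides 11 genes named whatever their values (Dusp1, Nr4a1, Egr2, Ier3, Btg2, Zfp36, Myc, Klf6, Ccnd1, Mapk8 and Srf); other genes in the text were added after their values were seen. For likeness the 5 nearest genes were named. Ccn1, Ccn2, Mrtfa and Mrtfb were matched to older list symbols through RefSeq synonyms. Single-cell and ATAC-Seq data of the study were not analysed here. A few genes that this rule selects, and 1 sequence, are left out of the text.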

Additional observations from a re-analysis of the deposited data

How the results depend on the processing

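Fos, Fosb and Fosl2 stayed higher and Junb and Ier2 lower, past the threshold, under all 14 alternatives, and no gene reversed. The count of lower genes among the 9 rose from 2 to 5 with upper quartile scaling (Jun, Jund and Egr1 added) and to 4 with no filter beyond 1 count (Jun and Egr1 added), and was 2 to 4 when a library was left out, with 4 without 48hr replicate 2. Higher genes numbered 3 to 4 when a library was left out. Atf3 passed with library size only, with no filter, and without the first library of either group. DESeq2 called 3 higher and 3 lower. Over all genes, library size only gave 5308 higher and 2110 lower, and the share of calls that were higher moved from 52.5% to 71.6% with a shift of 0.20 in the median log2 fold change; upper quartile scaling gave a share of 44.5%. Over all genes, leaving out a library gave 2874 to 3451 higher and 2638 to 3223 lower, and other immediate early genes gave 11 to 13 higher and 10 to 14 lower. With the replicate block, 3 of the 9 genes were higher and 2 lower. Libraries sharing a number are not paired by the labels, and the correlations of their deviations were 0.0335, -0.0674 and -0.138.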
